A study of Homo sapiens with 11 samples.

Results

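The genes described here encode the subunits, activators, inhibitor and assembly chaperones of the proteasome, the protease complex that degrades ubiquitin-tagged proteins in the cytosol and nucleus. They were taken as every gene symbol in the count table made of PSMA, PSMB, PSMC, PSMD, PSME, PSMF or PSMG followed by a number, leaving out the immunoproteasome genes PSMB8 and PSMB9. This gave 46 of the 28152 symbols: 17 of the core particle (PSMA and PSMB), 20 of the regulatory particle (PSMC and PSMD) and 9 others (4 PSME activators, the inhibitor PSMF1 and 4 PSMG chaperones). PSMA8, a testis form of an alpha subunit, had 0 counts in every library. PSMB11, a thymus form of a catalytic subunit, had between 0 and 1 counts per library. The other 44 passed the filter on low counts.

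RNA was sequenced from xenografts of BT-474, an established line of human breast cancer with the label hormone receptor and HER2 positive. All hosts were female athymic nude mice, which lack T cells, and each carried a slow-release pellet of 0.72 mg of estradiol (90-day release) under the skin before BT-474 cells in Matrigel were placed in a mammary fat pad. Tumours could be enrolled once above 95 mm3. The 6 vehicle libraries (001, 003, 004, 005, 006 and 007) came from animals given mannitol in water. The 5 evexomostat libraries (002, 003, 004, 005 and 007) came from animals given evexomostat (SDX-7320) at 12 mpk in the same solution. Evexomostat inhibits methionine aminopeptidase MetAP2, an enzyme that trims the first methionine from new proteins. Both were injected under the skin every 4 days and all libraries are labelled day 33. The comparison asks which genes differ in tumours of treated animals.

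Library totals ran from 22808033 to 39249329 counts, so that 3 counts, the floor used here, corresponded to 0.0764 to 0.132 RPM (reads scaled to a common total). Of the genes that should mark the line, ERBB2 lay between 26.7 and 66.5 CPM (counts scaled to a common total and by TMM factors), and KRT8 and KRT18 averaged 333.3 and 148.7. The luminal genes GATA3, EPCAM and FOXA1 averaged 6.5, 3.05 and 1.05 CPM, KRT19 0.804 and CDH1 0.453. Of these, KRT19 (0 to 1.65 CPM over the libraries) and CDH1 (0.147 to 1.34 CPM) were low in every library. The hormone receptor genes ESR1, at 0.286 CPM, and PGR, at 0.0654 CPM and not past the count filter, were low in tumours labelled hormone receptor positive. ERBB2, the HER2 gene, averaged 53.3 CPM, below KRT8 and KRT18. Whether the tumours match the label BT-474 was not tested. How mouse reads were handled is not given in the sources used here, and in bulk tumour RNA fewer cells of a type and less RNA per cell cannot be told apart. Vehicle 001 stood apart from the other 10 libraries: ribosomal protein genes (80 genes) held 14.2% of its counts, while they held 4.79% to 6.94% in vehicle 003 to 007 and 7.01% to 8.61% under evexomostat. The comparison is therefore given with all libraries first and then without it, and the plot of log2 fold changes shows both fits for every tested gene.

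The core particle is a barrel of stacked rings. Outer rings of alpha subunits (PSMA) form the gate, and inner rings of beta subunits (PSMB) hold the proteolytic sites of PSMB5, PSMB6 and PSMB7. The regulatory particle caps the barrel: a ring of ATPases (PSMC) unfolds substrates, while non-ATPase subunits (PSMD) bind and remove the ubiquitin chains. Cells that run short of proteasome activity are known to raise most of these genes together through the transcription factor NFE2L1, which binds antioxidant response elements in their promoters.

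Among the 10 libraries other than vehicle 001, transcript levels within each particle were unequal, although most of the subunits assemble in fixed proportion. PSMB10, which replaces PSMB7, and assembly chaperones such as PSMD5 are exceptions. Levels between genes are given as CPM per kilobase of transcript (mean ± SD, n = 10). In the core particle they ran from 40.2 ± 5.74 for PSMB10, the interferon-induced replacement of PSMB7, to 511.3 ± 63.5 for the beta subunit PSMB4, with a median of 126.6. Of the catalytic subunits, PSMB7 stood at 214 ± 32.7 and PSMB5 at 210.3 ± 21.3, which did not differ beyond their spread, and PSMB6 at 82.8 ± 11.3. PSMA7 was the most abundant alpha subunit at 360.3 ± 53.9, and the lowest alpha subunit, PSMA1, was at 83 ± 6.82. In the regulatory particle the median was 65.8, from 32.5 ± 2.89 for PSMD12, a subunit of the lid, to 257.8 ± 24.4 for the ubiquitin receptor PSMD4. The ATPases ran from PSMC6 at 44.7 ± 5.15 to PSMC3 at 208.2 ± 20. Among the rest, the interferon-induced activator subunits PSME2 (385 ± 45.8) and PSME1 (274.4 ± 22.2) were high, while the large activator PSME4 (20.9 ± 2.9) and the chaperone PSMG4 (20.5 ± 1.7) were lowest and lay within their spread of each other.

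**Figure D1:**
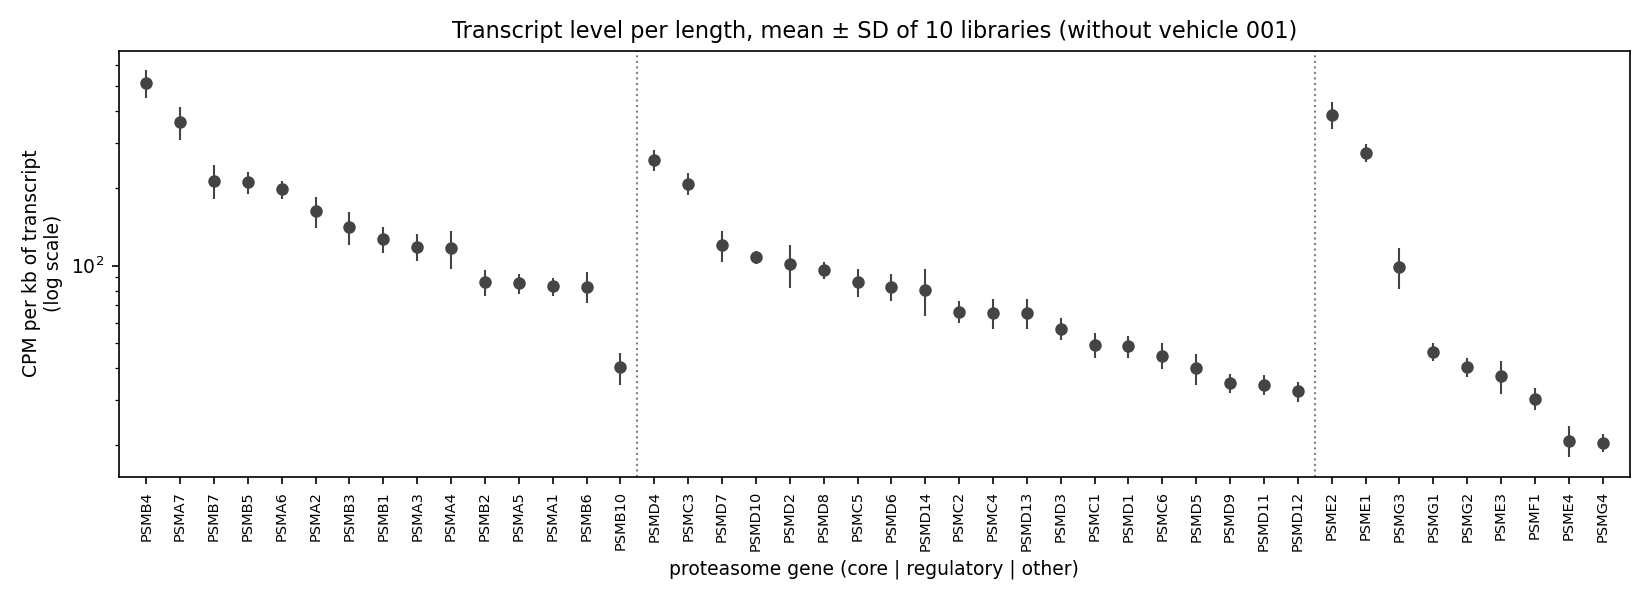
Transcript level of each tested proteasome gene in CPM per kilobase of transcript (log axis), as the mean of the 10 libraries without vehicle 001 with bars of 1 SD, ordered within the core particle, the regulatory particle and the other members. PSMB4 at 511.3 was the highest of the 44 genes and PSMG4 at 20.5 the lowest.

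With all 11 libraries, no proteasome gene passed the test. edgeR's quasi-likelihood test with Benjamini-Hochberg adjustment called 101 of 16653 genes (0.606%), and 0 of 15 core, 0 of 20 regulatory and 0 of 9 other genes. DESeq2 called 0 as well. At an unadjusted p under 0.05, which 13.4% of all tested genes reached, there was 1 proteasome gene: PSMD3, a lid subunit of the regulatory particle. No gene of either particle had groups that did not overlap, against 2.97% of all tested genes. The authors' deposited table also gives 0 proteasome genes an adjusted p under 0.05, of 268 genes in all, and its smallest adjusted p among them is 0.567.

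The median log2 fold change (evexomostat over vehicle) with all libraries was -0.20 over the core particle, with 4 of 15 genes above 0, 0.06 over the regulatory particle, with 13 of 20 above 0, and 0.01 over the other members. Over all tested genes it was -0.04, with 44.6% above 0. The core median stayed below 0 under the other scalings (-0.21, -0.17 and -0.06) and was above 0 at 0.18 with sample quality weights, 0.07 with limma on log2(RPM + 1) and 0.18 once vehicle 001 was left out. The regulatory median was 0.19, 0.18 and 0.18 in the last 3 of these. On log2(RPM + 1) the median of all genes was itself 0.08, against -0.04 with TMM scaling.

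The lowest core p-value with all libraries was that of PSMA4, an alpha subunit. It had 109.7, 107.9, 122.1, 84.2 and 143.7 CPM in vehicle 003 to 007, 260.4 CPM in vehicle 001, and 113.6, 123.9, 115.1, 100.4 and 81.9 CPM in evexomostat 002, 003, 004, 005 and 007. Vehicle 001 lay above all the other libraries, and the remaining ones of both groups overlapped. The log2 fold change was -0.37 (SE 0.25, edgeR adjusted p = 0.588) with all libraries and -0.08 (SE 0.15, adjusted p = 0.778) without vehicle 001. For PSMA3, another alpha subunit, vehicle 001 held 315.2 CPM, vehicle 003 to 007 held 89 to 129.9 and the evexomostat libraries 103.9 to 122.3. Its log2 fold change was -0.32 with all libraries and 0.11 without vehicle 001, and neither passed the test. PSMA6, at 367.8 CPM in vehicle 001, 159.8 to 207 in the other vehicle libraries and 160.2 to 185.7 under evexomostat, moved from -0.27 to -0.03.

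**Figure D2:**
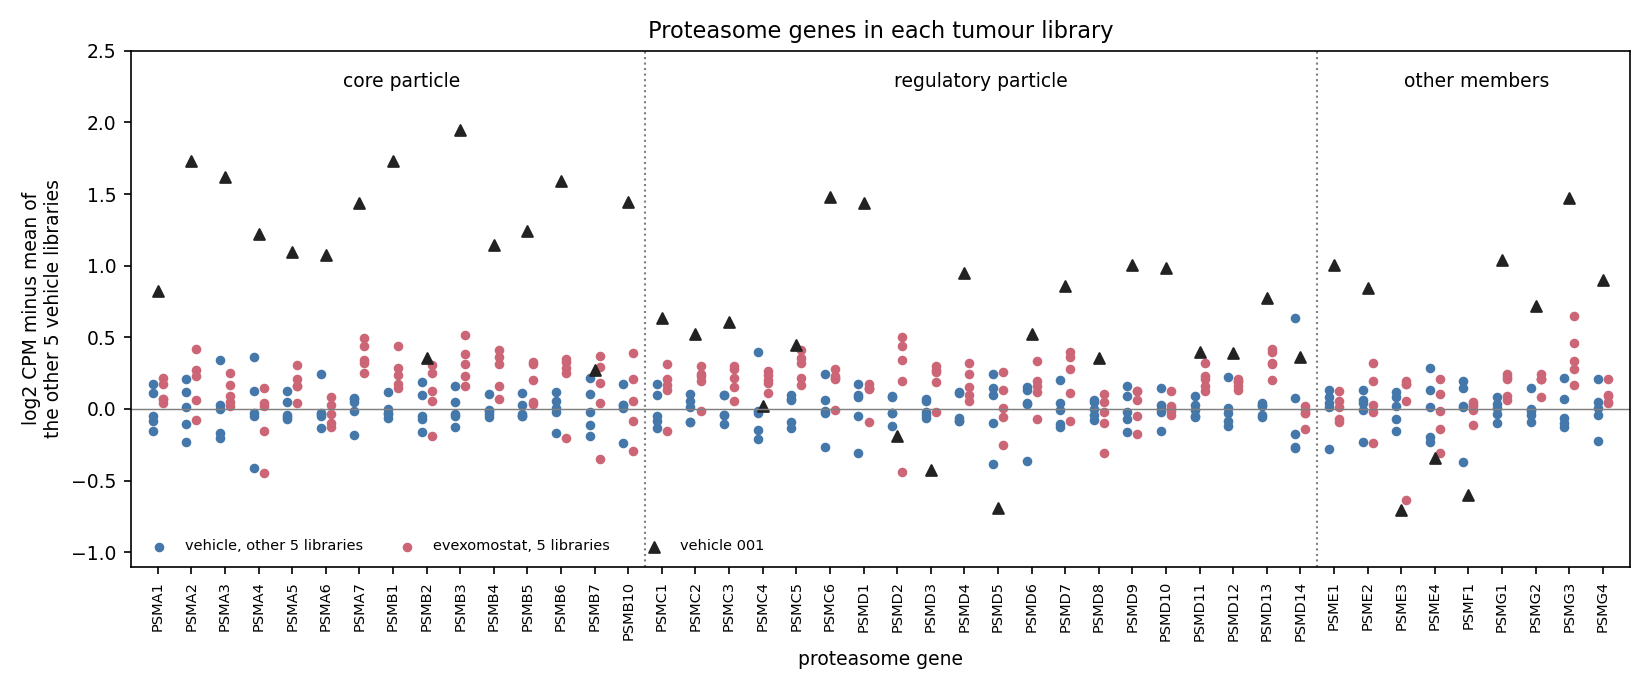
Level of each tested proteasome gene in each library as log2 CPM minus the mean of vehicle 003 to 007, with points for those 5 vehicle libraries and the 5 evexomostat libraries and a triangle for vehicle 001. The triangles lie above all 5 other vehicle libraries for 15 of 15 core and 15 of 20 regulatory genes.

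Vehicle 001 held more core than regulatory transcripts relative to the other vehicle libraries. Its ratio to their mean ran from 1.2 (PSMB7) to 3.85 (PSMB3) over the core particle, and it was above all 5 of them for 15 of 15 core genes. Over the regulatory particle the ratio ran from 0.614 (PSMD5, an assembly chaperone) to 2.77 (the ATPase PSMC6), with 15 of 20 above all 5. Over the other members it ran from 0.612 (the nuclear activator PSME3) to 2.76 (the core assembly chaperone PSMG3), with 6 of 9 above all 5. The 6 members below all 5 were PSMD2, PSMD3, PSMD5, PSME3, PSME4 and PSMF1. The median log2 difference was 1.24 over the core particle, 0.52 over the regulatory particle and 0.84 over the others, and -0.03 over all genes.

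Shorter transcripts were higher in vehicle 001. Across the 44 proteasome genes its log2 difference from the other vehicle libraries had r = -0.65 with log2 transcript length, and across 15746 genes r = -0.27. These are correlations across genes of 1 library, which are not independent replicates. Most core transcripts are short: PSMB3 has 773 nucleotides and PSMA2 683, while PSME4 has 7099. The same correlation over the 44 genes was -0.49 in evexomostat 003, -0.36 in vehicle 006 and -0.35 in evexomostat 004, and between 0 and 0.33 in the other 7 libraries. Its part in the difference between core and regulatory particle was not tested. After an offset for length and GC content the core median with all libraries was -0.02 and the regulatory median 0.15.

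**Figure D3:**
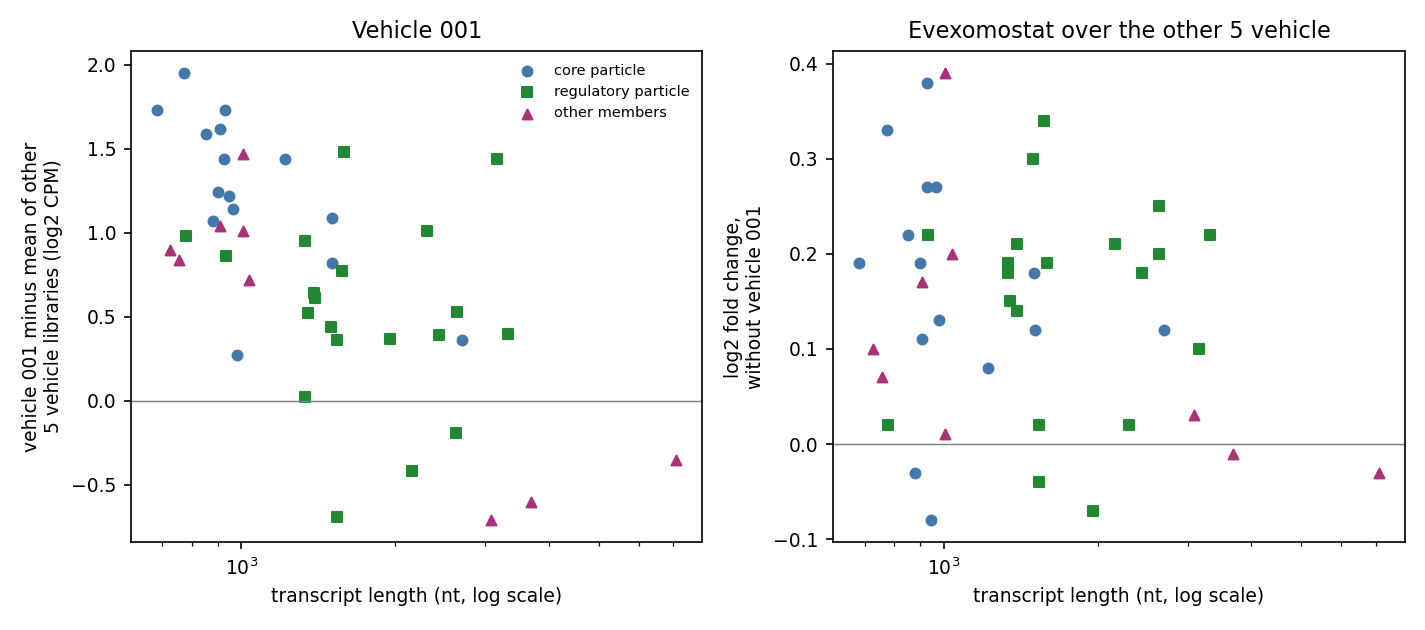
Left, log2 CPM in vehicle 001 minus the mean of the other 5 vehicle libraries against transcript length (log axis, nucleotides) for 44 proteasome genes, by part of the complex. Right, the edgeR log2 fold change without vehicle 001 against the same lengths. The left panel has r = -0.65 and the right one r = -0.24.

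Without vehicle 001, edgeR called 865 of 16565 genes (5.22%), 328 of them higher (1.98%). In both particles 2 of 35 genes (5.71%) were called, a share near that of all genes: the alpha subunit PSMA7 and the lid subunit PSMD13, both higher under evexomostat. The median log2 fold change was 0.18 over the core particle and 0.18 over the regulatory particle, against 0 over all genes. Of the core genes 13 of 15 lay above 0, of the regulatory genes 18 of 20, and of all tested genes 49.6%. These counts describe the lists, whose members are not independent of each other, and carry no test. By ring, the median was 0.12 over 7 alpha subunits, 0.21 over 8 beta subunits (8 above 0) and 0.19 over 6 ATPases (6 above 0). It was 0.16 over the 14 PSMD genes, of which 12 lay above 0. The PSMD genes hold not only subunits but also assembly chaperones such as PSMD5, which lay at 0.02, as did PSMD9 and PSMD10. At an unadjusted p under 0.05, 5 core, 6 regulatory and 3 other genes were higher and none lower, while 10.9% of all tested genes were higher and 13.5% lower.

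**Figure D4:**
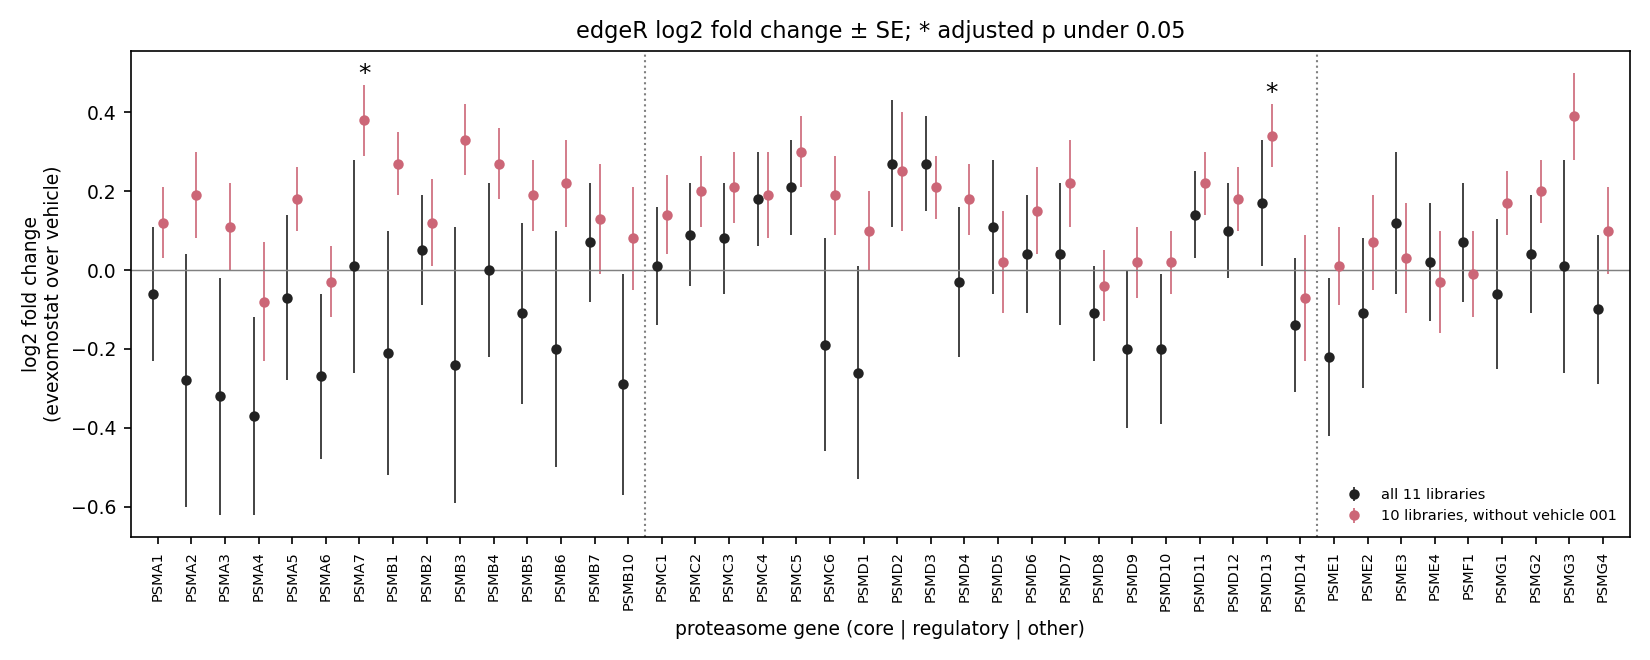
edgeR log2 fold change of each tested proteasome gene (evexomostat over vehicle, bars of 1 SE) with all 11 libraries and without vehicle 001; an asterisk marks an adjusted p under 0.05. The core median is -0.20 with all libraries and 0.18 without vehicle 001, and the 2 asterisks stand at PSMA7 and PSMD13.

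PSMA7 had 287.2, 300.7, 255.1, 306.3 and 304.4 CPM in vehicle 003 to 007 and 363.1, 367.7, 408.3, 346 and 393.8 CPM in evexomostat 002, 003, 004, 005 and 007. All 5 evexomostat libraries lay above all 5 of these vehicle libraries, and vehicle 001, at 786.4 CPM, lay above every library. The means were 290.7 ± 21.3 (SD, n = 5) and 375.8 ± 25 (SD, n = 5), a 1.3-fold rise, or 0.38 on the log2 scale (SE 0.09, adjusted p = 0.0336 by edgeR). With all 11 libraries it was 0.01 (adjusted p = 0.994). It was called in 10 of 21 alternative fits (edgeR, DESeq2 or limma adjusted p = 0.00178 to 0.131). The call did not hold when vehicle 003, 004 or 005 or evexomostat 002, 004, 005 or 007 was left out as well (0.33 to 0.40, edgeR adjusted p = 0.0573 to 0.095), nor after the length and GC offset (0.33, adjusted p = 0.0662).

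PSMD13 had 93.6, 92.4, 92.6, 88.5 and 87.6 CPM in vehicle 003 to 007 and 113.5, 112.9, 121.5, 104.8 and 120.1 CPM in the evexomostat libraries. The 2 groups did not overlap, with vehicle 001 again highest at 155.3 CPM. The means were 90.9 ± 2.71 (SD, n = 5) and 114.6 ± 6.65 (SD, n = 5), a 1.26-fold rise, or 0.34 on the log2 scale (SE 0.08, adjusted p = 0.0312 by edgeR), against 0.17 (adjusted p = 0.704) with all libraries. It was called in 12 of 21 alternative fits (adjusted p = 0.00065 to 0.189), among them the length and GC offset (0.36, adjusted p = 0.0302). The call did not hold without vehicle 003, 004 or 007 or evexomostat 002, 004 or 007 (0.32 to 0.34, edgeR adjusted p = 0.0521 to 0.0872).

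Of the 35 tested genes in both particles, 6 were higher in every evexomostat library than in every vehicle library other than 001, while 3.98% of all tested genes were. The other 4 did not pass the adjusted threshold. PSMB3, a beta subunit without proteolytic activity, had 88.6, 93.3, 100.1, 94.4 and 107.8 CPM in vehicle 003 to 007 and 113.1, 126.4, 138, 108 and 120 CPM under evexomostat. The margin between its groups was narrow, at 107.8 against 108 CPM, and vehicle 001 was at 372.4 CPM. Its log2 fold change was 0.33 (SE 0.09, edgeR adjusted p = 0.0593). The ATPase PSMC5 had 105.2, 120.6, 121.6, 108.3 and 123.9 CPM in vehicle 003 to 007 and 129.7, 148.1, 154, 134.5 and 144.4 CPM under evexomostat. Vehicle 001, at 157.2 CPM, was above all of these, and the log2 fold change was 0.30 (SE 0.09, edgeR adjusted p = 0.0636) without it and 0.21 (adjusted p = 0.5) with it. PSMB1, also a non-catalytic beta subunit, ran from 102.4 to 115.9 CPM in those vehicle libraries and from 118 to 144.9 CPM under evexomostat (0.27, edgeR adjusted p = 0.0798). PSMD11, a lid subunit, ran from 101.9 to 112.9 CPM and from 115.5 to 132.2 CPM (0.22, edgeR adjusted p = 0.11). The genes of the particles not named singly had log2 fold changes of 0.12 to 0.27 in the core (PSMA1, PSMA2, PSMA5, PSMB2 and PSMB4) and of -0.04 (PSMD8) to 0.22 (PSMD7) over 13 regulatory genes, and none was called. With vehicle 001 included, PSMB3 (-0.24), PSMB1 (-0.21) and the catalytic subunits PSMB5 (-0.11), PSMB6 (-0.20) and PSMB10 (-0.29) lay below 0, while PSMC5 and PSMD11 (0.14) did not change sign.

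**Figure D5:**
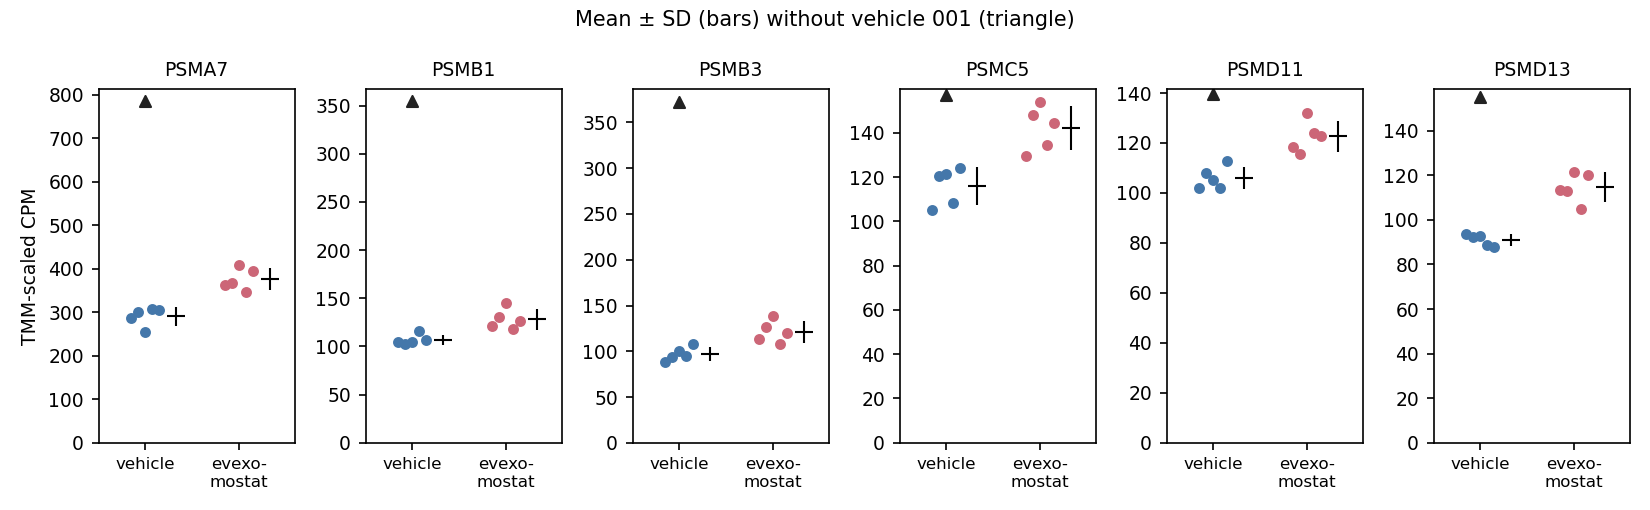
TMM-scaled CPM in each library of the 6 genes of the core and regulatory particle whose groups do not overlap once vehicle 001 (triangle) is set aside, with the mean and SD of each group without it. PSMA7 lies between 255.1 and 306.3 CPM in vehicle 003 to 007 and between 346 and 408.3 CPM under evexomostat.

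None of the proteolytic subunits passed the test, and the fold changes given for them here are without vehicle 001. PSMB5, the chymotrypsin-like subunit and the main target of bortezomib, had 172.7, 180.4, 190.5, 170.6 and 170.4 CPM in vehicle 003 to 007 and 203.8, 181.1, 219.3, 182.6 and 221.4 CPM under evexomostat. Evexomostat 002, 004 and 007 lay above those vehicle libraries and 003 and 005 within their range (0.19, SE 0.09, edgeR adjusted p = 0.207). PSMB6, the caspase-like subunit, had 58, 65.5, 67.9, 64.4 and 70.9 CPM against 56.5, 79.5, 81.8, 77.6 and 82.9 CPM. Evexomostat 002 was the lowest of all libraries for this gene and the other 4 evexomostat libraries were above these vehicle libraries (0.22, SE 0.11, edgeR adjusted p = 0.256). The trypsin-like PSMB7 spanned 175.4 to 232.5 CPM in vehicle 003 to 007 and 156.6 to 258.7 CPM under evexomostat (0.13, SE 0.14, adjusted p = 0.6), and its replacement PSMB10 spanned 40.2 to 53.7 and 38.8 to 62.5 CPM (0.08, SE 0.13, adjusted p = 0.754).

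The ubiquitin-handling subunits of the regulatory particle did not pass either, nor did the lid subunit PSMD3. The scaffold PSMD2, which binds ubiquitin and shuttle proteins, had 239.6, 258.1, 239.7, 224.7 and 260 CPM in vehicle 003 to 007, 213.7 in vehicle 001, and 345.7, 180.3, 279.9, 310.1 and 331 CPM under evexomostat. Evexomostat 003 was the lowest of all libraries and the other 4 evexomostat libraries lay above all vehicle libraries. The log2 fold change was 0.27 (SE 0.16, edgeR adjusted p = 0.492) with all libraries and 0.25 (SE 0.15, adjusted p = 0.338) without vehicle 001. PSMD3 had 111, 120, 109.3, 112.2 and 118.5 CPM in vehicle 003 to 007, 85.1 in vehicle 001, and 137.7, 112.4, 136.6, 130 and 140.7 CPM under evexomostat. Evexomostat 003 alone of the treated libraries lay inside the range of the vehicle libraries, of which 001 was lowest. Its log2 fold change was 0.27 (SE 0.12, edgeR adjusted p = 0.351) with all libraries and 0.21 (adjusted p = 0.158) without vehicle 001. The ubiquitin receptor PSMD4 spanned 303.8 to 349.4 CPM in vehicle 003 to 007 and 335.6 to 402 CPM under evexomostat (0.18, SE 0.09, adjusted p = 0.239, without vehicle 001, and -0.03 with it). The deubiquitylase PSMD14 spanned 129.6 to 242.7 and 141.7 to 158.7 CPM, with vehicle 007 alone above 165.2 CPM in these libraries (-0.07, SE 0.16, adjusted p = 0.814).

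Activators, the inhibitor and chaperones had a median log2 fold change of 0.07 without vehicle 001 and 0 of 9 genes called. PSME1 and PSME2, which form the interferon-induced activator ring, had means of 276 ± 29 and 284.2 ± 26.4 CPM in vehicle 003 to 007 and of 276.1 ± 16.9 and 297.1 ± 43.5 CPM under evexomostat (SD, n = 5 each). Their log2 fold changes were 0.01 and 0.07, and -0.22 and -0.11 with vehicle 001 included. Of the other activators, PSME3 spanned 102 to 123.1 CPM in those vehicle libraries and 73.2 to 129.7 CPM under evexomostat, where 003 was lowest and the other 4 lay at 117.7 or more. PSME4, which acts in the nucleus, spanned 126.3 to 181.2 and 119.8 to 171.5 CPM (-0.03). The inhibitor PSMF1 spanned 86.4 to 127.6 and 103.2 to 115.5 CPM (-0.01). A list of 11 interferon genes, the response known to induce PSME1, PSME2 and PSMB10, had 0 of 10 tested genes called. TAP1, at a mean of 0.173 CPM, did not pass the count filter, and no listed gene was at 0 in every library. The list summed to 1589.1 to 4289.5 CPM under vehicle, highest in vehicle 001, and to 1141.3 to 2149.3 CPM under evexomostat. ISG15 alone ran from 234 to 2477.8 CPM over the libraries, so the sum does not describe each listed gene. The part of this response in these values was not tested.

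The chaperones that pair to build the core particle had higher means under evexomostat than in vehicle 003 to 007, and none passed the test. PSMG3 had 80.6, 100.3, 90.4, 78.8 and 82.6 CPM in vehicle 003 to 007 and 118.6, 135.4, 108.8, 96.9 and 104.8 CPM under evexomostat. Only evexomostat 005 lay below the highest of these vehicle libraries, and vehicle 001 was at 239.1 CPM. Its log2 fold change of 0.39 was the largest of the 44 genes (SE 0.11, edgeR adjusted p = 0.0602, without vehicle 001). The partners PSMG1 and PSMG2 had means of 39.5 ± 1.84 and 39 ± 2.41 CPM in those vehicle libraries and of 44.3 ± 2.47 and 44.5 ± 1.92 CPM under evexomostat (SD, n = 5). Their log2 fold changes were 0.17 and 0.20 (edgeR adjusted p = 0.198 and 0.157). With vehicle 001 included the vehicle means were 46.4 CPM for PSMG1, 43.2 for PSMG2, 111.9 for PSMG3 and 16.5 for PSMG4, against 44.3, 44.5, 112.9 and 15.4 CPM under evexomostat. The log2 fold changes were then -0.06, 0.04, 0.01 and -0.10.

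Summed over each particle, the core took 0.229% to 0.249% of all counts in vehicle 003 to 007, 0.265% to 0.307% in the evexomostat libraries and 0.475% in vehicle 001. The regulatory particle took 0.252% to 0.263%, 0.278% to 0.314% and 0.342%. On the share of counts the evexomostat libraries thus lay above those 5 vehicle libraries for both particles. After TMM scaling the core sums stayed apart, at 2336 to 2475 against 2536 to 2970 CPM, while the regulatory sum of evexomostat 003 (2566 CPM) lay inside the vehicle range of 2529 to 2754 CPM. Ribosomal protein genes moved alongside: their share was higher in all 5 evexomostat libraries than in vehicle 003 to 007, and their part in the shift of the proteasome genes was not tested. A list of 12 skeletal muscle genes summed to 5.13 to 23.8 CPM under vehicle and to 7.2 to 533 CPM under evexomostat, highest in evexomostat 005. Of its 8 tested genes 0 were called without vehicle 001. Leaving out evexomostat 005 together with vehicle 001 gave medians of 0.18 and 0.18, and leaving out evexomostat 003 with vehicle 001 gave 0.20 and 0.20 for core and regulatory particle. Leaving out each of the 10 libraries in turn with vehicle 001 gave core medians of 0.13 to 0.20 and regulatory medians of 0.16 to 0.20.

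Over the 10 libraries without vehicle 001 the median SD of log2 CPM was 0.17 for core, 0.16 for regulatory and 0.15 for other members, against 0.3 over all tested genes, which include genes of much lower count. It was 0.18 over the partner genes and 0.21 over the NFE2L1 pathway genes described next. Pairs of core genes had a median Pearson r of 0.4 over these 10 libraries and of 0.25 once the group means were removed, and pairs of regulatory genes 0.39 and 0.27. Core and regulatory genes were related to each other about as much, with a median r of 0.36 before that removal. Pairs of the other members had a lower median, at 0.14, and -0.03 once the group means were removed. The median over pairs of all tested genes is not given here, so these values stand without a background. Among the genes whose profile over the 10 libraries was most like the mean of the core genes were ATP6V0B (r = 0.981), a subunit of the vacuolar proton pump, CD320 (0.956), EXOSC4 (0.942), a subunit of the RNA exosome, and MRPL10 (0.94), a mitochondrial ribosomal protein. Such genes were picked as the highest over all tested genes outside the members, with the group means left in. Also among the highest were RPA3 (0.927) and MRPL58 (0.923). Without vehicle 001, edgeR called both higher (0.64, adjusted p = 0.00903, and 0.43, adjusted p = 0.0312). All correlations of this paragraph share libraries and their depths and are given as descriptions.

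Genes that work beside the proteasome were described from 3 lists, without vehicle 001, and edgeR called none of them. Of 11 partners, which deubiquitylate, assemble or dock on the particle, 3 had an unadjusted p under 0.05 and all 3 were higher: the small lid subunit SEM1 (0.43, adjusted p = 0.0763), the ubiquitin receptor ADRM1 (0.22, adjusted p = 0.171) and AKIRIN2 (0.23, adjusted p = 0.173), which carries proteasomes into the nucleus. Of all tested genes 10.9% were higher and 13.5% lower at that level. With all libraries the partners had a median of -0.04 and 0 genes at that level. NFE2L1 itself had a mean of 216.1 ± 29 CPM in vehicle 003 to 007 and of 184.5 ± 21.6 CPM under evexomostat (SD, n = 5; -0.22, adjusted p = 0.258). Of the 9 genes of its pathway 8 lay below 0, with a median of -0.20, where 49.6% of all tested genes lay above 0, and 2 had an unadjusted p under 0.05, MAFF (-0.38, adjusted p = 0.117) and SYVN1 (-0.20, adjusted p = 0.158), both lower. With all libraries 8 of 9 also lay below 0, with a median of -0.09 and 1 gene at that level. Of the genes of ubiquitin supply and delivery, those with an unadjusted p under 0.05 included UBB (0.30, adjusted p = 0.0977), RPS27A (0.36, adjusted p = 0.134) and the segregase adaptor UFD1 (0.23, adjusted p = 0.0982). UBB and RPS27A encode ubiquitin, RPS27A as a fusion to a ribosomal protein. With vehicle 001 included the values were -0.05 for UBB, -0.34 for RPS27A and -0.01 for UFD1.

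To describe what these genes share beyond their names, their promoters were read for elements bound by NFE2L1 and by the CCAAT-binding factor. RefSeq promoter windows (GRCh38.p14, 250 bases before to 50 after the start) were matched by symbol for 40 of the 46 genes; PSMA7, PSMB1, PSMB6, PSMB7, PSMD4 and PSMG3 had no entry. The antioxidant response core TGACNNNGC, on either strand, was in 12 of 40 (30%), against 13.3% of 35116 promoters. It was in 1 of 13 core (7.69%), 6 of 19 regulatory (31.6%) and 5 of 8 other windows (62.5%). CCAAT, on either strand, was in 18 of 40 (45%), against 34.6% of all, and no window held both motifs overlapping. Each member was counted by 1 window, while the shares of all promoters count every entry, whether or not its gene was expressed here. The shares are thus not built alike, and their difference was not tested. PSMD13 and PSMD11 had neither motif in their windows. The sequences below were chosen to show the one core gene with the first motif, PSMB3, beside the ATPase PSMC5 and regulatory genes that carry it. Each is 30 bases, read 5′ to 3′ on the gene's strand, with the motif in capitals.
PSMB3, antioxidant element, chr17:38752627-38752656, plus strand: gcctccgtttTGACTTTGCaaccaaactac
PSMB3, CCAAT, chr17:38752676-38752705, plus strand: ggacgtgtgaCCAATagaaagcccagatgt
PSMC5, CCAAT, chr17:63827411-63827440, plus strand: tcttcaggtcCCAATcctccgcttccgcgc
PSMD3, antioxidant element, chr17:39980760-39980789, plus strand: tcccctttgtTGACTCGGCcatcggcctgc
PSMD12, antioxidant element, chr17:67366723-67366752, minus strand: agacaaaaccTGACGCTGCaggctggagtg
PSMD5, antioxidant element, chr9:120843037-120843066, minus strand: tggctacagtTGACACGGCcctaacggagg
The elements shown were picked from those upstream of the start, the nearest motif base at -96 and -51 for the PSMB3 pair, -6 for PSMC5, -29 for PSMD3, -157 for PSMD12 and -126 for PSMD5. PSMC4 and PSMD1 held the antioxidant core after the start, at 27 and 39, and PSMD3 a second match at 33. Genes that share the antioxidant core differed in their values: without vehicle 001 the log2 fold change was 0.33 for PSMB3, 0.21 for PSMD3, 0.18 for PSMD12 and 0.02 for PSMD5, and vehicle 001 was 3.85 times the other vehicle mean for PSMB3 and 0.614 times for PSMD5. A match to these letters is a description of the window and not a binding site.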

How the data were processed

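RNA of 11 tumour libraries was compared, 6 vehicle and 5 evexomostat, grouped by title. Per the submitters' processing notes the tools were bcl2fastq 2.17, STAR 2.7.5c, featureCounts of Subread and edgeR, with GRCh37/hg19; the annotation, strand setting and handling of mouse reads are not given in the sources used here, so a gene that shares reads with a pseudogene, an overlapping gene or its mouse counterpart could have been counted in part with it. The authors deposited raw read counts per gene symbol, RPM values made from those counts, and a comparison table with log2 fold changes, p-values and adjusted p-values. All per-sample columns were matched to a library.

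Genes were kept with filterByExpr (minimum count 10, minimum total 15), and groups were compared on the counts by the quasi-likelihood test of edgeR 4.0.16 in R 4.3.3, with TMM scaling and no covariate. P-values were adjusted by Benjamini-Hochberg over all genes tested, with a threshold of 0.05, once with all 11 libraries and once without vehicle 001. The SE is that implied by the F statistic. Transcript lengths are median-length protein-coding transcripts of GENCODE 29 and exist for 94.6% of tested genes. The labels do not say that libraries are independent animals beyond a replicate number, so p-values measure the spread between these samples. Alternatives were other scalings, DESeq2 1.42.0, limma 3.58.1 with quality weights or on log2(RPM + 1), other filters, a replicate block, a length and GC offset with splines of 5 degrees of freedom, and leaving out each library; the length and GC offset and the inclusion of vehicle 001 for single genes were added after seeing the data. The edgeR, DESeq2 and limma fits were tested on simulated counts.

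The members and lists were chosen with earlier results of these data known. Values per library are given for members with the 3 smallest p-values of each part in either fit, the largest rise and fall in each particle without vehicle 001, and the catalytic subunits, ubiquitin receptors, PSMD14, activators, PSMF1, PSMA8 and PSMB11; other members are given by ranges. Interferon, muscle, leukocyte, endothelial, adipocyte and stromal lists each had 0 genes called without vehicle 001, of 10, 8, 6, 4, 2 and 6 tested. The stromal list summed to 395.8 to 2055.2 CPM under vehicle and 493.4 to 1066.2 CPM under evexomostat. Some genes outside the members are not reported here.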

Additional observations from a re-analysis of the deposited data

Results flagged for a closer look

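In 25 of 56 groups of libraries compared, 1 library lay further from the rest of its group than Dixon's 95% limit allows, where chance gives about 1 in 20 groups, or 2.8 here. Of these, 22 concern vehicle 001, and the genes share that library. In the core particle vehicle 001 was the highest vehicle library for PSMA3 (315.2 CPM, next library 129.9), PSMA4 (260.4), PSMA6 (367.8), PSMA7 (786.4), PSMB1 (354.5), PSMB3 (372.4), PSMB5 (417.4), PSMB6 (196.4) and PSMB10 (129.4). In the regulatory particle it was highest for PSMC5 (157.2 CPM), PSMD4 (620.7), PSMD11 (139.7) and PSMD13 (155.3), and lowest for PSMD3 (85.1, next library 109.3). Among the other members it was highest for PSME1 (551.6 CPM), PSME2 (507.1), PSMG1 (81), PSMG2 (64.1) and PSMG3 (239.1). Its share of counts was the highest of the vehicle libraries for the core particle (0.475%, next 0.249%), the regulatory particle (0.342%) and the other members (0.149%). Of the evexomostat libraries, 002 was lowest for PSMB6 (56.5 CPM, next 77.6), 003 for PSME3 (73.2, next 117.7) and 005 for PSMG2 (41.2, next 44.9).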

How the results depend on the processing

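Of 792 alternative values of the proteasome genes followed singly, 666 kept their direction and their side of the threshold. Of the rest, 25 newly passed the threshold, 22 no longer did, and 79 changed sign, of which 0 were past the threshold. The cause was not tested. With all libraries, the number of genes called overall was 62 with library sizes only, 660 with DESeq2, 1059 with quality weights and 733 on 8 libraries without a block. The number of proteasome genes called was 0 in each part in all of these and the other alternatives, except for 1 regulatory gene, PSMD13, with quality weights, and PSMA7 and PSMD13 without vehicle 001. Genes followed singly with all libraries were PSMA3, PSMA4, PSMA6, PSMA7, PSMC5, PSMD2, PSMD3, PSMD13, PSME1, PSME2 and PSME3. Among these, under the other scalings and methods, PSME2 changed sign (0.004 with library sizes only, 0.013 on log2(RPM + 1), 0.023 with quality weights). With quality weights PSMA3 (0.082) and PSMA6 (0.003) did too. Other core genes also changed sign. In the main fit 4 of 15 core genes lay above 0, with library sizes only 7, on log2(RPM + 1) 10 and with quality weights 14.

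Without vehicle 001, DESeq2 called 2030 genes and quality weights 1314. Core genes called were 4 with DESeq2, 3 on log2(RPM + 1), 2 each with upper quartile scaling, library sizes only, quality weights and a minimum mean log2 CPM of 1, and 0 with no count filter and with the length and GC offset. Regulatory genes called were 3 with library sizes only and on log2(RPM + 1), 2 each with upper quartile scaling, DESeq2, quality weights and the minimum mean, and 0 with no count filter. Other members called were 1 with upper quartile scaling, library sizes only, DESeq2, the minimum mean and log2(RPM + 1). Among the genes followed singly, signs changed near 0 for PSMA6, PSMD14 and PSMB10. PSMA6 was at 0.025 with upper quartile scaling, 0.031 with library sizes only, and 0.032 with quality weights and on log2(RPM + 1). PSMD14 was at 0.053 with quality weights and 0.024 on log2(RPM + 1), and PSMB10 at -0.029 with the length and GC offset. They also changed for PSME1 (-0.003 with relative log expression scaling, -0.007 with DESeq2, -0.015 with quality weights, -0.012 with no count filter, -0.014 with the length and GC offset) and PSME4 (0.019 with upper quartile scaling, 0.025 with library sizes only, 0.03 on log2(RPM + 1), 0.12 with the offset). For PSMF1 the values were 0.04 with upper quartile scaling, 0.047 with library sizes only, 0.039 with quality weights, 0.007 with the minimum mean, 0.058 on log2(RPM + 1) and 0.087 with the offset.

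Including vehicle 001 was an alternative added after seeing the data. Among the genes followed singly, the sign then changed for PSMA3 (-0.32), PSMB1 (-0.21), PSMB3 (-0.24), PSMB5 (-0.11), PSMB6 (-0.20), PSMB10 (-0.29), PSMD4 (-0.032), PSME1 (-0.22), PSME2 (-0.11), PSME4 (0.02), PSMF1 (0.07) and PSMG1 (-0.064). Other members also changed sign: 13 of 15 core genes lay above 0 without vehicle 001 and 4 of 15 with it.

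Leaving out 1 library at a time gave 1 to 865 genes called with all libraries and 215 to 1068 without vehicle 001. Core genes called were 0 to 1 in both, and regulatory genes 0 to 1 and 0 to 2. With all libraries the ranges that cross 0, among the genes followed singly, were -0.41 to 0.11 for PSMA3, -0.07 to 0.38 for PSMA7, -0.30 to 0.006 for PSME1 and -0.18 to 0.07 for PSME2. Without vehicle 001 they were -0.17 to 0.017 for PSMA4, -0.059 to 0.037 for PSMA6, -0.027 to 0.14 for PSMB10, -0.15 to 0.12 for PSMD14, -0.059 to 0.041 for PSME1, -0.012 to 0.12 for PSME2, -0.029 to 0.14 for PSME3, -0.10 to 0.045 for PSME4 and -0.10 to 0.037 for PSMF1.

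Numbers 003, 004, 005 and 007 occur in both groups, and the deviations of same-numbered libraries had correlations of -0.27, 0.07, 0.05 and -0.10. Of the 8 libraries 1, evexomostat 004, correlated best with its own number. The labels do not say whether the numbers pair tumours, and these correlations cannot decide it. With the replicate block on these 8 libraries 107 genes were called, against 733 without it, and 0 core and 0 regulatory genes in both fits. Among the genes followed singly with all libraries, the values that changed sign with the block were PSMA3 0.20, PSME1 0.044, PSME2 0.16 and PSME3 -0.077. Without it on the same libraries they were 0.20, 0.037, 0.16 and -0.045. Depth did not limit the 44 tested genes, whose counts were at least 379 in every library.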
